A study of Mus musculus with 38 samples.

Results

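Pre-plasmablasts are B cells that have switched on Blimp1, the transcriptional repressor that drives plasma cell formation, but do not yet show the plasma cell surface protein CD138. Here they were set against activated B cells that had not switched it on. The comparison takes 4 RNA sequencing libraries out of the 38 mouse samples of the series, chosen by their labels: 2 of pre-plasmablasts (Pre-PB, sorted as CD138– GFP+) and 2 of activated B cells (Act B cell, sorted as CD138– GFP–). All came from C57BL/6 B cells cultured for 4 days with LPS, a component of bacterial outer membranes to which B cells respond, and all carried the genotype Blimp1(GFP/+) Cd23(Cre/+). One Blimp1 allele therefore carries a green fluorescent protein reporter, and both groups carry only 1 allele without it. The Cre recombinase is driven by the Cd23 gene, which is active in mature B cells, and controls carry it too. A pair of libraries of Blimp1-deficient pre-plasmablasts, genotype Blimp1(GFP/fl) Cd23(Cre/+) and gated as CD138–GFP+CD22hi, and a pair of plasmablasts (PB, CD138+GFP+, control genotype) from the same culture length are given beside the results where they bear on them. Whether the 2 libraries of a group were made from different mice is not given, and the p-values cover the spread among these libraries, which may be technical.

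An activated B cell that becomes a plasmablast changes from a cell that senses and presents antigen into one that makes and exports antibody. Prdm1, which encodes Blimp1, represses genes of B cell identity, while Irf4 and Xbp1 support the antibody-secreting programme. Xbp1 is a transcription factor of the unfolded protein response, the set of signals by which cells match the folding capacity of the endoplasmic reticulum (ER) to the load of new proteins. Through that response the ER gains chaperones, protein channels, sugar-adding enzymes and vesicle coats.

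The values are deposited RPKM, read numbers divided by transcript length and by library size, which permit comparison of genes of different length. Between 9821 and 9934 genes reached 1 RPKM in the 4 libraries, and the read depth behind them is unknown. Of 10473 genes tested with limma on log2(RPKM + 1), 5048 (48.2%) differed at an adjusted p below 0.05, 2117 (20.2%) higher and 2931 (28.0%) lower in pre-plasmablasts. Counts of called members in the gene lists below are to be read beside these shares. Counts with median-of-ratios scaling or with the library pairs as a block are to be read beside the totals of those fits. The median difference over all tested genes was -0.12 on the log2 scale. With median-of-ratios scaling that median was -0.01 and the split turned to 2461 higher and 2259 lower, or 52.1% higher among called genes in place of 41.9%, so small differences in either direction depend on the scaling. In all 5048 genes both library pairs, described below, gave the same sign. The calls rest on these same libraries, so that agreement is no independent result. With the pairs as a block in the fit, 2921 genes were higher and 4368 lower. In 7634 genes (72.9%) the 2 groups did not overlap, with the pre-plasmablasts above in 3133 (29.9%) and below in 4501 (43.0%). By at least 2-fold, 896 genes (8.56%) were higher and 864 (8.25%) lower. The libraries are of bulk RNA, in which fewer cells of a type and less RNA per cell cannot be told apart.

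Pre-plasmablasts, still sorted as CD138-negative, differed from activated B cells in each part of this machinery that was read. All 10 tested regulators of the secretory programme, among them Prdm1, on which the cells were sorted, and 35 of 38 tested ER chaperones were higher. Genes of B cell receptor signalling, antigen presentation on MHC class II, sterol synthesis and the interferon response were mostly lower. Cell cycle inhibitors of the Cdkn2 locus were higher, and a part of the DNA replication and mitosis genes was lower. Ribosomal protein, proteasome and respiratory chain genes mostly did not pass the test in the main fit, which leaves the library pairs out. The main fit thus counts the spread between pairs as error, and calls and p-values are from it unless another setting is named. With the library pairs described below as a block, 38 of 74 ribosomal protein genes were lower and 4 higher. In that fit 12 of 45 proteasome genes were higher and 10 lower, and 19 of 61 respiratory chain genes were higher and 11 lower. Over all 10473 genes the block fit called 2921 higher and 4368 lower.

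The library numbers in the labels fall into a lower and a higher run, with 1 library of each group in each run. Libraries of the lower run are called library 1 here and form pair 1, and those of the higher run are library 2 and form pair 2. Across the 10473 genes, the differences within pair 1 and within pair 2 had a Pearson correlation of 0.971, a description over genes that share the same 4 libraries. Among called genes the median gap between the 2 differences was 0.112 on the log2 scale, and 12 genes had a gap above 1. The 5 largest gaps belonged to Snord87, Igj, Slpi, S100a4 and Pik3cg, and the call of Snord87, a small nucleolar RNA, was lost without any 1 library other than pre-plasmablast library 2 and with either other scaling. Igj, the J chain that joins antibody into polymers, had 1621 and 3403 RPKM in pre-plasmablasts, against 7.33 and 118 RPKM in activated B cells. Activated B cell library 2 was therefore far above library 1 for this gene, and the pre-plasmablasts stayed above both. Of the 265 genes higher by at least 4-fold, 200 were at a higher level in activated B cell library 2 than in library 1. Of the 200 genes lower by at least 4-fold, 156 were at a higher level in pre-plasmablast library 2 than in library 1. Differences were larger in size in pair 1 for 219 of those 265 genes, with medians of 2.70 in pair 1 and 2.61 in pair 2. They were also larger in size in it for 163 of those 200 genes, with medians of -2.68 in pair 1 and -2.49 in pair 2. Whether the sorted fractions of the 2 pairs differed in purity was not tested.

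**Figure D1:**
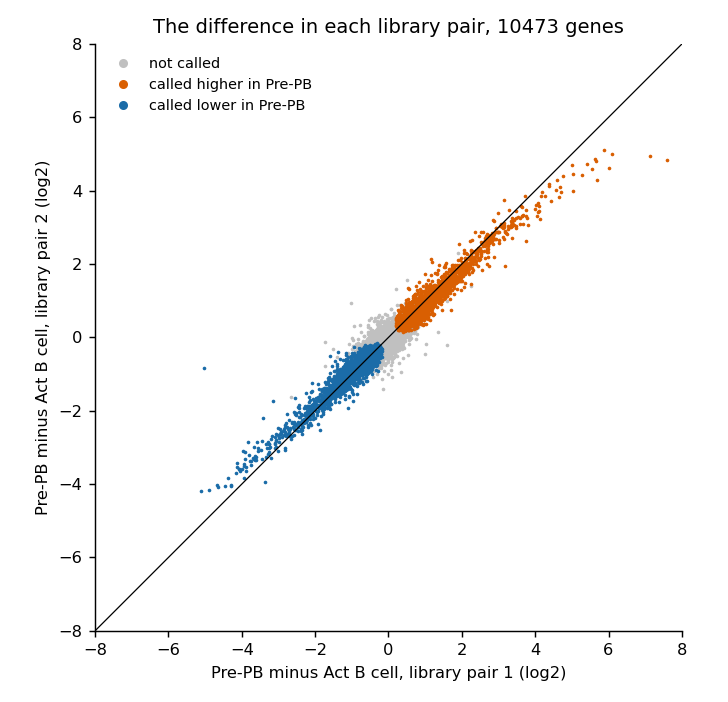
Log2 difference, pre-plasmablasts over activated B cells, within library pair 1 (horizontal axis) and within library pair 2 (vertical axis), 1 point per tested gene. The points lie along the line of equal differences with a correlation of 0.971 over 10473 genes, and the genes farthest from it include Igj and Slpi.

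Regulators of the antibody-secreting programme were higher without exception. All 10 tested members, Prdm1 included, passed the test in that direction, with a median log2 difference of 3.18. Prdm1 had 429 and 327 RPKM in pre-plasmablasts, against 7.45 and 10.7 RPKM in activated B cells. Since the GFP gate selects on this locus, its difference describes the sort and is no independent result. Xbp1 had 1156 and 1443 RPKM in pre-plasmablasts, against 44.04 and 82.5 RPKM in activated B cells, a log2 difference of 4.40 ± 0.31 (SE, adjusted p = 8.39e-05). Irf4, a transcription factor needed for plasma cell formation, had 330.1 and 288 RPKM in pre-plasmablasts, against 26.4 and 33.2 RPKM in activated B cells, a difference of 3.34 ± 0.14 (SE, adjusted p = 1.76e-05). The sets did not overlap for either gene. Bhlha15, also called Mist1, which organises secretory cells, had 99.6 and 110.5 RPKM in pre-plasmablasts, against 0.699 and 2.23 RPKM in activated B cells. Creb3l2, a membrane-bound transcription factor of the early secretory pathway, had 32.2 and 38.03 RPKM in pre-plasmablasts, against 1.66 and 2.35 RPKM in activated B cells, a difference of 3.59 ± 0.17 (SE, adjusted p = 2.32e-05). The smallest changes of the list were in Atf6, another ER-bound transcription factor, at 0.94 ± 0.10 (SE, adjusted p = 0.000465), and in Zbtb20, a zinc finger factor of plasma cells, at 0.71 ± 0.09 (SE, adjusted p = 0.00113).

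Among 29 tested transcription factors of B cells, 4 were higher, 17 were lower and 8 did not pass the test, with a median log2 difference of -0.71. The count of higher members was 2 without activated B cell library 1, and 7 with the library pair as a block. Spib, an Ets factor that supports the B cell receptor response, had 14.9 and 30.2 RPKM in pre-plasmablasts, against 546 and 569 RPKM in activated B cells, a difference of -4.65 ± 0.40 (SE, adjusted p = 0.000173). Klf2, a factor that controls B cell trafficking, had 8.79 and 22.3 RPKM in pre-plasmablasts, against 249 and 382 RPKM in activated B cells, a difference of -4.35 ± 0.59 (SE, adjusted p = 0.00122). For both genes pre-plasmablast library 2 stood above library 1, and both libraries stayed below the activated B cells. Pax5, which holds B cell identity, had 13.5 and 25.6 RPKM in pre-plasmablasts, against 193 and 294 RPKM in activated B cells, a difference of -3.60 ± 0.48 (SE, adjusted p = 0.00113). Hhex, a homeobox factor, differed by -3.50 ± 0.40 (SE, adjusted p = 0.000569), and Bcl11a, a zinc finger factor of early B cells, by -3.47 ± 0.19 (SE, adjusted p = 3.42e-05). Bach2, a repressor that delays plasma cell formation, had 4.17 and 4.59 RPKM in pre-plasmablasts, against 22.1 and 21.7 RPKM in activated B cells, a difference of -2.09 ± 0.16 (SE, adjusted p = 0.000101). Irf8 differed by -1.59 ± 0.12 (SE, adjusted p = 8.93e-05) and Sfpi1, which encodes PU.1, by -0.86 ± 0.11 (SE, adjusted p = 0.00109).

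Some factors of the B cell list went the other way or did not pass. Pou2af1, the coactivator OBF-1 that works with Oct factors at immunoglobulin genes, had 1693 and 1704 RPKM in pre-plasmablasts, against 450.3 and 447 RPKM in activated B cells, a difference of 1.92 ± 0.09 (SE, adjusted p = 2.6e-05). Myb, a factor best known from progenitors, differed by 0.77 ± 0.11 (SE, adjusted p = 0.00163). Ebf1, which establishes the B cell programme, had 23.2 and 25.5 RPKM in pre-plasmablasts, against 33.9 and 41.6 RPKM in activated B cells, a difference of -0.61 ± 0.14 (SE, adjusted p = 0.0125). That call was lost without pre-plasmablast library 1 and without activated B cell library 2. Bcl6, the factor of germinal centre B cells, had 5.64 and 7.36 RPKM in pre-plasmablasts, against 7.32 and 8.99 RPKM in activated B cells and did not pass (adjusted p = 0.216, and adjusted p = 0.021 with the library pair as a block). Foxo1 had 22.6 and 34.7 RPKM in pre-plasmablasts, against 21.4 and 32.8 RPKM in activated B cells, at adjusted p = 0.872, and the 2 groups overlapped.

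**Figure D2:**
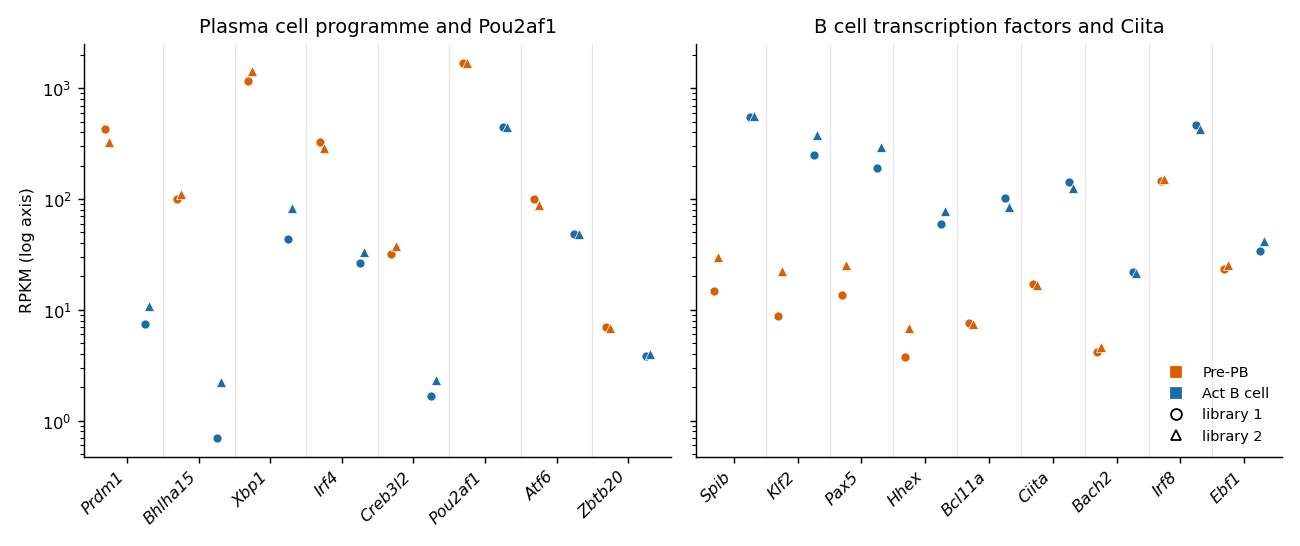
RPKM on a log axis for transcription factors higher in pre-plasmablasts (left panel) and B cell factors (right panel), with pre-plasmablasts left of activated B cells, library 1 as circles and library 2 as triangles. For Prdm1, Bhlha15, Xbp1 and Irf4 the pre-plasmablast libraries stand above both activated B cell libraries, and for Spib, Klf2, Pax5 and Bach2 below them.

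The 15 called genes with the largest difference, apart from Prdm1 and Bhlha15, hold secreted proteins, ER proteins and receptors. Slpi, a secreted protease inhibitor, had 817 and 784 RPKM in pre-plasmablasts, against 4.88 and 24.6 RPKM in activated B cells. Il10, an anti-inflammatory cytokine, had 96.4 and 80.9 RPKM in pre-plasmablasts, against 0.518 and 2.32 RPKM in activated B cells, a difference of 5.31 ± 0.36 (SE, adjusted p = 6.98e-05). Activated B cell library 2 was again above library 1 for both. Ctla4, an inhibitory receptor best known from T cells, had 60.7 and 56.5 RPKM in pre-plasmablasts, against 1.26 and 1.74 RPKM in activated B cells. Tigit, another inhibitory receptor, had 64.9 and 60.5 RPKM in pre-plasmablasts, against 1.01 and 2.90 RPKM in activated B cells. Lax1, a membrane adaptor that damps lymphocyte signalling, had 226 and 209.6 RPKM in pre-plasmablasts, against 4.84 and 8.75 RPKM in activated B cells, a difference of 4.86 ± 0.23 (SE, adjusted p = 2.37e-05). Pik3cg, the catalytic gamma subunit of PI 3-kinase, had 83.5 and 72.1 RPKM in pre-plasmablasts, against 0.636 and 2.73 RPKM in activated B cells, a difference of 4.99 ± 0.36 (SE, adjusted p = 8.91e-05). Gnaz, a G protein alpha subunit, differed by 4.74 ± 0.30 (SE, adjusted p = 5.6e-05), and Tmem52, a membrane protein, by 4.84 ± 0.19 (SE, adjusted p = 1.54e-05). The ER proteins Fkbp11 and Selm differed by 5.07 ± 0.29 (SE, adjusted p = 4.02e-05) and 5.07 ± 0.23 (SE, adjusted p = 2.18e-05). The files also name C630004H02Rik at 5.54 and 1190002H23Rik at 5.25.

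At the other end stood genes of innate sensing and B cell surface signalling. Tlr9, the receptor for unmethylated CpG DNA, had 2.65 and 5.16 RPKM in pre-plasmablasts, against 107 and 109.5 RPKM in activated B cells, a difference of -4.53 ± 0.31 (SE, adjusted p = 7.63e-05). Cd22, an inhibitory coreceptor, had 28.5 and 38.3 RPKM in pre-plasmablasts, against 493 and 470.0 RPKM in activated B cells. Fcer2a, which encodes the IgE receptor CD23, had 0.987 and 2.08 RPKM in pre-plasmablasts, against 38.3 and 49.4 RPKM in activated B cells, a difference of -4.17 ± 0.40 (SE, adjusted p = 0.000274). Plaur, the urokinase receptor, had 2.19 and 2.64 RPKM in pre-plasmablasts, against 79.2 and 60.6 RPKM in activated B cells. Il10ra, a subunit of the receptor for IL-10, had 5.03 and 5.76 RPKM in pre-plasmablasts, against 99.4 and 83.2 RPKM in activated B cells, a difference of -3.85 ± 0.19 (SE, adjusted p = 2.78e-05), while its ligand gene Il10 was among those highest in pre-plasmablasts. Haao, an enzyme of tryptophan breakdown, differed by -4.17 ± 0.20 (SE, adjusted p = 2.6e-05), and Evl, an actin regulator, by -3.89 ± 0.32 (SE, adjusted p = 0.000156). Shank1, Aff3, Lrrc25 and Ifitm2 differed by -4.25, -3.82, -3.80 and -3.82.

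A small number of genes were near the floor in 1 group and clearly present in the other. At under 1 RPKM in both activated B cell libraries and 10 RPKM or more in both pre-plasmablast libraries stood 16 genes, and 8 genes showed the reverse. The ones named next were chosen after their values were seen, other than Tmem52, Tnf, Itgam and Oas2. Prg2, which encodes a granule protein best known from eosinophils, had 25.03 and 27.5 RPKM in pre-plasmablasts, against 0.257 and 0.565 RPKM in activated B cells. Gpx3, a secreted glutathione peroxidase, had 28.8 and 31.5 RPKM in pre-plasmablasts, against 0.444 and 0.878 RPKM in activated B cells. Atoh8, a basic helix-loop-helix factor, had 19.6 and 19.2 RPKM in pre-plasmablasts, against 0.207 and 0.683 RPKM in activated B cells. Levels this near the floor give fold changes of uncertain size, since 1 is added to each value before the logarithm. Epcam, an adhesion molecule of epithelia, had 10.4 and 13.5 RPKM in pre-plasmablasts, against 0.0787 and 0.547 RPKM in activated B cells. Cpeb3, an RNA-binding protein, had 15.9 and 15.7 RPKM in pre-plasmablasts, against 0.239 and 0.755 RPKM in activated B cells. Epha8, an ephrin receptor, had 11.4 and 10.9 RPKM in pre-plasmablasts, against 0 and 0.208 RPKM in activated B cells, and 1 activated B cell library was thus listed at 0. In the reverse direction, Tnf, a pro-inflammatory cytokine, had 0.764 and 0.562 RPKM in pre-plasmablasts, against 22.5 and 15.02 RPKM in activated B cells. Plbd1, a phospholipase-like protein, had 0.151 and 0.638 RPKM in pre-plasmablasts, against 11.5 and 10.5 RPKM in activated B cells.

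The genes of protein folding and export made up 8.85% and 9.10% of summed RPKM in pre-plasmablasts, against 2.32% and 2.45% in activated B cells, over 210 tested genes of 5 lists (chaperones, ER-associated degradation, translocon, N-glycans and vesicle coats). In the same unit, Cd74, the invariant chain of MHC class II, was the most abundant gene in both, with 9782 and 9358 RPKM in pre-plasmablasts, against 10231 and 9034 RPKM in activated B cells. The next most abundant genes of pre-plasmablasts included B2m, the light chain of MHC class I, and 2010001M09Rik, singled out for its level and which RefSeq names Mzb1, an ER protein of B cells that assists antibody assembly. 2010001M09Rik had 6620.1 and 4366 RPKM in pre-plasmablasts, against 405 and 358 RPKM in activated B cells, a difference of 3.82 ± 0.27 (SE, adjusted p = 7.98e-05). Summed over the 38 tested ER chaperone and oxidative folding genes, levels were 17369 and 18029 RPKM in pre-plasmablasts, against 3297 and 3423 RPKM in activated B cells.

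**Figure D3:**
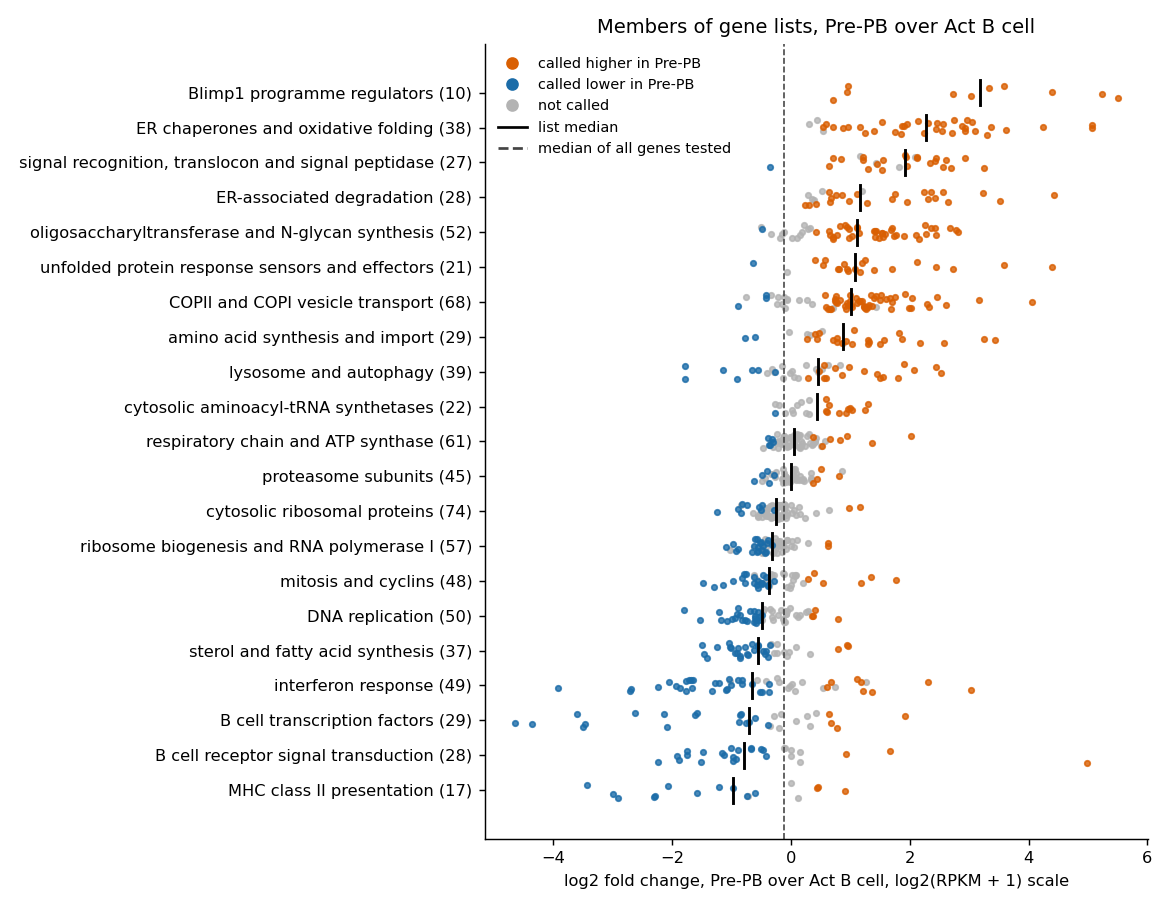
Log2 difference, pre-plasmablasts over activated B cells, of every tested member (points) of 21 gene lists, with each list's median as a bar and the median of all tested genes at -0.12 as a dashed line. The secretory lists lie to the right of that line and the lists of MHC class II, B cell receptor signalling and sterol synthesis mostly to the left.

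ER chaperones and folding enzymes were higher in 35 of 38 tested members, none was lower and 3 did not pass (median log2 difference 2.27). Hspa5, the chaperone BiP that binds new antibody chains, had 1194 and 1851 RPKM in pre-plasmablasts, against 204 and 318 RPKM in activated B cells, a difference of 2.54 ± 0.31 (SE, adjusted p = 0.000773). Hsp90b1, the ER form of Hsp90, had 2063 and 2537 RPKM in pre-plasmablasts, against 183 and 263 RPKM in activated B cells, a difference of 3.37 ± 0.21 (SE, adjusted p = 5.55e-05). Txndc5, a protein disulfide isomerase, had 1335 and 1272 RPKM in pre-plasmablasts, against 51.97 and 88.7 RPKM in activated B cells, a difference of 4.24 ± 0.25 (SE, adjusted p = 4.94e-05). The lowest pre-plasmablast value was several times the highest activated B cell value in all of these. Creld2, an ER stress-induced protein, had 604 and 706 RPKM in pre-plasmablasts, against 43.7 and 62.4 RPKM in activated B cells. Pdia6, a further disulfide isomerase, had 1148 and 1046 RPKM in pre-plasmablasts, against 154 and 143 RPKM in activated B cells. Ero1lb, which re-oxidises disulfide isomerases, had 129 and 141 RPKM in pre-plasmablasts, against 14.04 and 20.3 RPKM in activated B cells, a difference of 2.93 ± 0.21 (SE, adjusted p = 7.85e-05). Vkorc1, of the vitamin K cycle, and Gpx7, an ER peroxidase, did not pass at adjusted p = 0.453 and adjusted p = 0.124. With the library pair as a block both passed, at adjusted p = 0.0325 and 0.0237.

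Some promoters of these genes hold an element through which ER stress is known to act. The ER stress element, CCAAT and CCACG with 9 bases of any kind between them, is bound by NF-Y at its first letters and by ATF6 or XBP1 at its last. It was searched on both strands of RefSeq promoters, taken from 250 bases before to 50 bases after the annotated gene start on build GRCm38.p6. It lay in 14 of 8263 tested genes with a promoter (0.169%) and in 0.119% of all 32851 windows. Of those 14 genes 11 were higher, 2 were lower and 1 did not pass, with a median difference of 2.2, against -0.12 over the genes without the element. Of 8249 genes without the element 1643 were higher and 2329 lower. It lay in 8 of 34 ER chaperone genes with a promoter (23.5%). These 8 were all higher, with a median of 2.71, and so were 23 of the 26 chaperone genes without it, with a median of 2.02. The matches of these 8 genes and of Derl3 and Syvn1, all called higher, are shown so that the flanks can be compared. The spacing was set by the search. Matches of Adcy3 and Pan2, which were lower, and of Hnrnpa3, which did not pass, are not shown. Capitals mark the 5 letters at each end of the element, with 8 bases on either side.
Hspa5: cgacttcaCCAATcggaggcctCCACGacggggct
Hsp90b1 first match: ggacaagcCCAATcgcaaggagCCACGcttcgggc
Hsp90b1 other match: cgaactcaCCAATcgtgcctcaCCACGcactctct
Calr: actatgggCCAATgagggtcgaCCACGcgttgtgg
Canx: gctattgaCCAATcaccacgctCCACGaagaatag
Creld2: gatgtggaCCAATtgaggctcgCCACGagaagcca
Dnajc3: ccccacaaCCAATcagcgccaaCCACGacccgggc
Ero1lb: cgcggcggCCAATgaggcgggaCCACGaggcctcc
Pdia6: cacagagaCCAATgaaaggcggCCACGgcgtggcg
Derl3: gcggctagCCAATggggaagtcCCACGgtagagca
Syvn1: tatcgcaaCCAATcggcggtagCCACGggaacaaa
The Hspa5 window lies at chr2:34772017-34772051, plus strand, with the element ending 47 bases before the start. The Hsp90b1 windows lie at chr10:86705630-86705664, minus strand, and at chr10:86705525-86705559, plus strand. That of Calr lies at chr8:84847067-84847101, plus strand, and that of Canx at chr11:50325792-50325826, minus strand. Creld2 shares its window, chr15:88819512-88819546, minus strand, with Alg12, which is transcribed the other way from it. That of Dnajc3 lies at chr14:118937819-118937853, plus strand, that of Ero1lb at chr13:12565674-12565708, minus strand, and that of Pdia6 at chr12:17266483-17266517, plus strand. Derl3 has its window at chr10:75893234-75893268, minus strand, and Syvn1 at chr19:6046524-6046558, plus strand. The sequences are those of the genomic strand named.

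Genes with the element spanned a wide range of differences. Derl3, of ER-associated degradation, had the largest of the 14 at 4.44 ± 0.14 (SE, adjusted p = 1.54e-05), with 489.9 and 530.5 RPKM in pre-plasmablasts, against 19.4 and 26.2 RPKM in activated B cells. Calr, a lectin chaperone, had 2684 and 2498 RPKM in pre-plasmablasts, against 691 and 647 RPKM in activated B cells, a difference of 1.95 ± 0.12 (SE, adjusted p = 4.86e-05). Canx, its membrane-bound relative, had 217 and 195 RPKM in pre-plasmablasts, against 136 and 116 RPKM in activated B cells, a difference of 0.71 ± 0.15 (SE, adjusted p = 0.00808), and that call was lost without activated B cell library 2. Creld2 differed by 3.62 and Alg12, an N-glycan mannosyltransferase that faces the same element, by 0.71 ± 0.18 (SE, adjusted p = 0.0161). The Alg12 call was lost without pre-plasmablast library 1 and without activated B cell library 2. Of the others, Adcy3, an adenylate cyclase, and Pan2, an mRNA deadenylase, were lower at -0.88 and -0.67, and Hnrnpa3, an RNA-binding protein, did not pass at adjusted p = 0.24, and adjusted p = 0.00594 with the library pair as a block. These 3, Alg12 and Syvn1 are named because they hold the element and not for their values. The shorter ER stress element II, ATTGG and CCACG with 1 base of any kind between them, lay in 8 tested genes (0.0968%), of which 4 were higher and 0 lower. Of 8255 genes without element II 1650 were higher and 2331 lower. The UPR element TGACGTGG, whose last letters on the other strand can coincide with the end of the first element, lay in 90 genes (1.09%), of which 39 were higher and 15 lower. Of 8173 genes without the UPR element 1615 were higher and 2316 lower. Among chaperones the genes with either element were Dnajb11 (element II) and Txndc5 and Txndc11 (UPR element). Dnajb11 had 232 and 229.8 RPKM in pre-plasmablasts, against 47.6 and 44.3 RPKM in activated B cells. Txndc11 differed by 3.06 ± 0.16 (SE, adjusted p = 3.2e-05). A match describes letters in a window and not a bound site.

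The 250 bases before the start of Hspa5 are given because the element lies among further CCAAT letters there, at chr2:34771840-34772089 on the plus strand of GRCm38.p6 (RefSeq), with capitals for the ends of the matched element.
Hspa5 upstream: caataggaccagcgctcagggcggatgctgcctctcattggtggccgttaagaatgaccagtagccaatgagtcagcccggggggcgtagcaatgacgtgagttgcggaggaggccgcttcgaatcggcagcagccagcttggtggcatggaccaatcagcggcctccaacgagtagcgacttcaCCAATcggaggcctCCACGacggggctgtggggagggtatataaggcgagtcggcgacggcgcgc

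**Figure D4:**
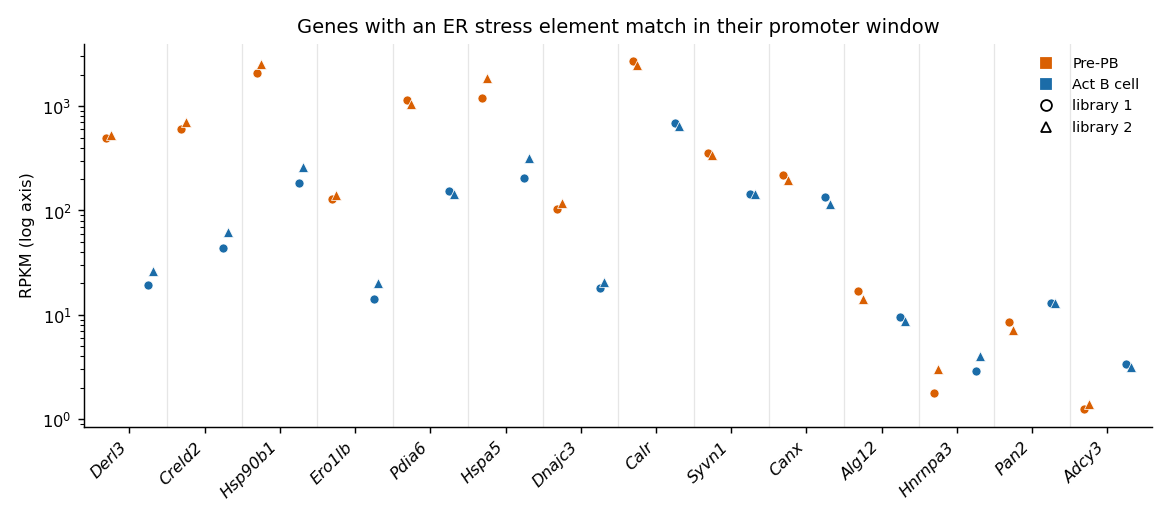
RPKM on a log axis of the 14 genes whose promoter holds the ER stress element, with pre-plasmablasts left of activated B cells, library 1 as circles and library 2 as triangles. In 11 of them both pre-plasmablast libraries lie above both activated B cell libraries, from Derl3 at a log2 difference of 4.44 to Canx and Alg12 at 0.71, while Adcy3 and Pan2 lie below.

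Sensors and effectors of the unfolded protein response were higher in 19 of 21 tested members, 1 was lower and 1 did not pass (median 1.08). The lists overlap, since Ern1, Atf6, Atf6b, Xbp1 and Creb3l2 also stand among the regulators above and Dnajc3 among the chaperones. Ern1, which encodes the sensor IRE1 that splices Xbp1, had 26.1 and 30.02 RPKM in pre-plasmablasts, against 2.86 and 3.95 RPKM in activated B cells, a difference of 2.73 ± 0.15 (SE, adjusted p = 3.61e-05). Dnajc3, a cochaperone of BiP that also restrains the kinase PERK, had 104 and 117.5 RPKM in pre-plasmablasts, against 18.3 and 20.7 RPKM in activated B cells. The lower member was Nfe2l2, a factor of the oxidative stress response, at -0.63 ± 0.16 (SE, adjusted p = 0.0186), a call lost without pre-plasmablast library 1 and without activated B cell library 2. Mbtps2, a protease that releases ATF6, did not pass at adjusted p = 0.678. Genes of ER-associated degradation, which returns misfolded proteins to the cytosol, were higher in 23 of 28 tested members and lower in none (median 1.16). Edem1, a lectin of that route, had 402 and 379.7 RPKM in pre-plasmablasts, against 29.2 and 37.7 RPKM in activated B cells. Edem3 had 48.9 and 49.9 RPKM in pre-plasmablasts, against 7.06 and 7.09 RPKM in activated B cells, a difference of 2.64 ± 0.08 (SE, adjusted p = 1.54e-05). H47, the selenoprotein S gene, had 366 and 393 RPKM in pre-plasmablasts, against 62.04 and 64.9 RPKM in activated B cells. Syvn1, the ubiquitin ligase HRD1, had 356 and 339 RPKM in pre-plasmablasts, against 143 and 144 RPKM in activated B cells, a difference of 1.27 ± 0.08 (SE, adjusted p = 5.88e-05). Ubxn8 did not pass at adjusted p = 0.48, and passed with the library pair as a block at adjusted p = 0.00691.

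The route into the ER was higher in 22 of 27 tested members, 1 was lower and 4 did not pass (median 1.93). Ssr2, of the translocon-associated complex, had 919 and 863 RPKM in pre-plasmablasts, against 114 and 118 RPKM in activated B cells, a difference of 2.93 ± 0.09 (SE, adjusted p = 1.54e-05). Sec11c, a signal peptidase subunit, had 1180.0 and 1368 RPKM in pre-plasmablasts, against 178 and 239.7 RPKM in activated B cells. Srprb, a subunit of the receptor for the signal recognition particle, had 113 and 99.8 RPKM in pre-plasmablasts, against 16.5 and 17.9 RPKM in activated B cells. H13, the signal peptide peptidase, differed by 3.25 ± 0.16 (SE, adjusted p = 2.58e-05). The smallest of the higher ones was Srp14, of the recognition particle itself, at 0.65 ± 0.12 (SE, adjusted p = 0.00501). Sec61a2, a low-abundance channel subunit with 3.21 and 2.99 RPKM in pre-plasmablasts, against 4.32 and 4.16 RPKM in activated B cells, was the lower one, and no member was lower when any 1 of the pre-plasmablast, activated B cell or Blimp1-deficient libraries was left out. That call was also lost with median-of-ratios scaling, with quantile normalization, with 0.1 added in place of 1 and with only the 4 libraries compared. Of 52 genes for N-glycan synthesis and transfer 39 were higher, 1 was lower and 12 did not pass (median 1.11). Ddost, of the transferase that attaches the glycan, had 579 and 545 RPKM in pre-plasmablasts, against 79.8 and 82.6 RPKM in activated B cells, a difference of 2.78 ± 0.09 (SE, adjusted p = 1.54e-05). Rpn1, another subunit, had 503 and 447 RPKM in pre-plasmablasts, against 68.5 and 65.4 RPKM in activated B cells. Krtcap2, a further subunit, had 788 and 1239 RPKM in pre-plasmablasts, against 142 and 233 RPKM in activated B cells, a difference of 2.44 ± 0.38 (SE, adjusted p = 0.00224). The lower one was Mpdu1, which aids the use of dolichol-linked mannose, at -0.48 ± 0.12 (SE, adjusted p = 0.0173), not called without pre-plasmablast library 1 or activated B cell library 1 or 2. With the library pair as a block 4 were lower. Alg9, a mannosyltransferase, had 12.2 and 10.7 RPKM in pre-plasmablasts, against 10.96 and 11.7 RPKM in activated B cells and did not pass.

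Vesicle coats and transport factors between ER and Golgi were higher in 51 of 68 tested members, lower in 3 and not called in 14 (median 1.02). Sec24d, a cargo-binding COPII subunit, had 82.2 and 77.1 RPKM in pre-plasmablasts, against 3.30 and 4.38 RPKM in activated B cells, while its paralog Sec24a differed by 2.33 ± 0.09 (SE, adjusted p = 1.54e-05). Lman1, a cargo receptor for glycoproteins, had 192 and 175 RPKM in pre-plasmablasts, against 18.2 and 20.9 RPKM in activated B cells, a difference of 3.17 ± 0.10 (SE, adjusted p = 1.54e-05). Kdelr3, a receptor that returns ER residents, had 5.85 and 5.11 RPKM in pre-plasmablasts, against 0.0383 and 0.336 RPKM in activated B cells. Bnip1, a SNARE of the return route, was lower with 13.4 and 12.2 RPKM in pre-plasmablasts, against 27.7 and 21.99 RPKM in activated B cells, a difference of -0.90 ± 0.15 (SE, adjusted p = 0.00318), and Rab1b, a GTPase of the early route, was lower, at -0.42 ± 0.07 (SE, adjusted p = 0.00404). The third was Use1, another SNARE, at -0.41 ± 0.10 (SE, adjusted p = 0.0134), not called with median-of-ratios scaling or without pre-plasmablast library 1 or 2 or activated B cell library 1. With the library pair as a block 7 were lower. Ykt6 and Trappc3 did not pass, at adjusted p = 0.574 and adjusted p = 0.614.

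Genes that make and import amino acids were higher in 22 of 29 tested members, lower in 2 and not called in 5 (median 0.87). Chac1, which degrades glutathione and is induced by ATF4, had 129 and 83.1 RPKM in pre-plasmablasts, against 8.25 and 9.10 RPKM in activated B cells, a difference of 3.43 ± 0.25 (SE, adjusted p = 9.35e-05). Slc7a3, a transporter of basic amino acids, had 51.5 and 61.2 RPKM in pre-plasmablasts, against 3.87 and 6.38 RPKM in activated B cells. Pycr1, of proline synthesis, had 24.4 and 21.6 RPKM in pre-plasmablasts, against 3.13 and 2.91 RPKM in activated B cells, a difference of 2.58 ± 0.12 (SE, adjusted p = 2.15e-05). Each of these pre-plasmablast values was above every activated B cell value. Slc3a2, the heavy chain of the CD98 transporter of large neutral amino acids, had 328 and 312 RPKM in pre-plasmablasts, against 69.2 and 70.9 RPKM in activated B cells. Slc7a5, its light chain, had 283 and 264 RPKM in pre-plasmablasts, against 70.6 and 77.98 RPKM in activated B cells. Mthfd1l, of mitochondrial one-carbon metabolism, was lower at -0.77 ± 0.10 (SE, adjusted p = 0.000933). The other lower member was Shmt1, a serine hydroxymethyltransferase, at -0.60 ± 0.18 (SE, adjusted p = 0.0342), a call lost with either other scaling, and the count of lower members was 1 without pre-plasmablast library 1 or 2 or activated B cell library 1. Slc38a1, a glutamine transporter, had 45.6 and 48.2 RPKM in pre-plasmablasts, against 44.9 and 50.7 RPKM in activated B cells. Of 22 tested cytosolic aminoacyl-tRNA synthetases and partners 11 were higher, 1 was lower and 10 did not pass (median 0.44). Nars, for asparagine, had 233 and 211 RPKM in pre-plasmablasts, against 93.9 and 85.7 RPKM in activated B cells, a difference of 1.29 ± 0.10 (SE, adjusted p = 0.00013), while Rars, for arginine, had 51.9 and 60.6 RPKM in pre-plasmablasts, against 51.01 and 59.4 RPKM in activated B cells and did not pass. The lower one was Farsa, for phenylalanine, at -0.27 ± 0.08 (SE, adjusted p = 0.0263), not called with either other scaling, with only the 4 libraries compared or when any 1 of them was left out.

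The ATF4 composite element, searched as TGATGCAA on both strands, lay in 5 of 23 amino acid genes with a promoter (21.7%), against 0.762% of all tested genes and 0.895% of all windows. All 5 were higher (median 1.32), and so were 13 of the list's 18 genes without the element (median 0.77). Over all tested genes, 22 of the 63 with the element were higher and 13 lower (median 0.12). Of the 8200 without it 1632 were higher and 2318 lower (median -0.12). The matches are shown with the element in capitals and 8 bases on either side, since they are the part of this list with that element in reach of the start.
Chac1: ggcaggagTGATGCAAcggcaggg
Pycr1: cctgtgtaTGATGCAAtgcacaag
Slc7a11 first match: catgtggcTGATGCAAacctggag
Slc7a11 other match: ctgcatgaTGATGCAAattctcca
Slc1a4: gctggagaTGATGCAAcgcaggag
Got1: ggcttgtaTGATGCAAccaatgca
On GRCm38.p6 (RefSeq) they lie at chr2:119351041-119351064, minus strand, for Chac1, at chr11:120643836-120643859, minus strand, for Pycr1, at chr3:50443664-50443687, minus strand, and chr3:50443645-50443668, plus strand, for Slc7a11, at chr11:20332702-20332725, plus strand, for Slc1a4, and at chr19:43524692-43524715, plus strand, for Got1. Slc7a11, the cystine importer, had 2.07 and 1.85 RPKM in pre-plasmablasts, against 0.182 and 0.190 RPKM in activated B cells, a difference of 1.32 ± 0.11 (SE, adjusted p = 0.000131). Slc1a4, a carrier of alanine, serine and cysteine, had 10.3 and 9.99 RPKM in pre-plasmablasts, against 6.11 and 5.54 RPKM in activated B cells, a difference of 0.71 ± 0.12 (SE, adjusted p = 0.00306). Got1, an aspartate aminotransferase, differed by 0.41 ± 0.09 (SE, adjusted p = 0.0109), a call lost without pre-plasmablast library 1 and without activated B cell library 2. The 5 genes thus ranged from the largest difference of the list to among its smaller ones.

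The B cell receptor complex and its coreceptors were lower in 9 of 15 tested members, higher in 3 and not called in 3 (median -0.43, -0.30 with median-of-ratios scaling and -0.79 with quantile normalization). Cd72, an inhibitory coreceptor, had 7.30 and 16.6 RPKM in pre-plasmablasts, against 128 and 149.8 RPKM in activated B cells, a difference of -3.53 ± 0.52 (SE, adjusted p = 0.00185). Lilrb3, the inhibitory receptor PIR-B, differed by -3.50 ± 0.29 (SE, adjusted p = 0.000155), and Siglecg, an inhibitory sialic acid receptor, by -2.68 ± 0.12 (SE, adjusted p = 1.84e-05). Higher were Fcrla, an ER-resident Fc receptor-like protein, with 136 and 109 RPKM in pre-plasmablasts, against 48.3 and 48.8 RPKM in activated B cells, Cd81, a tetraspanin, at 1.12 ± 0.19 (SE, adjusted p = 0.00318), and Cr2, the complement receptor CD21, at 0.86 ± 0.13 (SE, adjusted p = 0.002). Ms4a1, which encodes CD20, had 411 and 475 RPKM in pre-plasmablasts, against 367 and 501 RPKM in activated B cells and overlapping groups. Of 28 signal transducers 19 were lower, 3 were higher and 6 did not pass (median -0.79). Ptpn6, the phosphatase SHP-1, had 82.05 and 101 RPKM in pre-plasmablasts, against 451 and 414 RPKM in activated B cells, a difference of -2.23 ± 0.14 (SE, adjusted p = 5.49e-05). Bcl10, an adaptor that links the receptor to NF-kB, had 72.2 and 41.03 RPKM in pre-plasmablasts, against 71.1 and 41.5 RPKM in activated B cells. Malt1, its protease partner, had 23.2 and 31.3 RPKM in pre-plasmablasts, against 22.6 and 32.5 RPKM in activated B cells. For both the pairs differed more than the groups, and neither passed the test. Prkcb, a protein kinase C of the receptor pathway, differed by -1.76 ± 0.21 (SE, adjusted p = 0.000713). The 3 higher ones were Pik3cg, Fyn, a Src-family kinase, at 1.66 ± 0.11 (SE, adjusted p = 6.7e-05), and Pik3r5, a regulatory subunit that partners Pik3cg, at 0.93 ± 0.10 (SE, adjusted p = 0.000485).

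Antigen presentation by MHC class II was lower in 11 of 17 tested members, higher in 3 and not called in 3 (median -0.98). Ciita, the coactivator that controls class II genes, had 17.3 and 16.8 RPKM in pre-plasmablasts, against 143 and 127 RPKM in activated B cells, a difference of -2.91 ± 0.26 (SE, adjusted p = 0.000189). H2-Oa, a subunit that modulates peptide loading, had 5.44 and 7.18 RPKM in pre-plasmablasts, against 77.6 and 77.3 RPKM in activated B cells, a difference of -3.44 ± 0.23 (SE, adjusted p = 7.08e-05). Ifi30, a thiol reductase of antigen processing, had 70.4 and 95.4 RPKM in pre-plasmablasts, against 661 and 655 RPKM in activated B cells, a difference of -2.99 ± 0.17 (SE, adjusted p = 4.02e-05). H2-DMb2, of the loading complex, differed by -2.31 ± 0.33 (SE, adjusted p = 0.0015). Cd74, by contrast, differed by -0.01 ± 0.14 (SE, adjusted p = 0.973). Among the higher ones, Ctss, the protease that trims the invariant chain, had 592 and 512 RPKM in pre-plasmablasts, against 315 and 275 RPKM in activated B cells, a difference of 0.90 ± 0.13 (SE, adjusted p = 0.00173). For MHC class I, 8 of 14 tested members were higher, 3 were lower and 3 did not pass (median 0.72). B2m had 5626 and 6693 RPKM in pre-plasmablasts, against 1762 and 2598 RPKM in activated B cells, a difference of 1.52 ± 0.28 (SE, adjusted p = 0.00493). Tapbpl, a peptide editor, differed by 1.92 ± 0.09 (SE, adjusted p = 2.18e-05), and Calr and Pdia3, ER chaperones that also serve this route, stand in the list too. Lower were subunits of the immunoproteasome, with Psmb10 at -0.62 ± 0.12 (SE, adjusted p = 0.00662) and Psmb8 at -0.49 ± 0.09 (SE, adjusted p = 0.00456). H2-K1 had 2240.3 and 2544 RPKM in pre-plasmablasts, against 894 and 1067 RPKM in activated B cells, and class I genes are close enough in sequence that reads may be split between them. Tap2 had 156 and 162 RPKM in pre-plasmablasts, against 143 and 143 RPKM in activated B cells, at adjusted p = 0.147, and adjusted p = 0.0256 with the library pair as a block. Tap2 also passed with median-of-ratios scaling.

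Costimulatory and TNF family genes were higher in 6 (27.3%) and lower in 10 (45.5%) of 22 tested members (median -0.46), against 20.2% and 28.0% of all genes. Cd86 had 2.53 and 4.61 RPKM in pre-plasmablasts, against 16.1 and 23.1 RPKM in activated B cells, a difference of -2.19 ± 0.46 (SE, adjusted p = 0.00809), and Cd40, the receptor for T cell help, had 16.8 and 12.1 RPKM in pre-plasmablasts, against 62.7 and 56.97 RPKM in activated B cells, a difference of -1.99 ± 0.21 (SE, adjusted p = 0.000464). Lta, which encodes lymphotoxin, had 0.247 and 0.361 RPKM in pre-plasmablasts, against 11.3 and 9.92 RPKM in activated B cells. Slamf7, a receptor abundant on plasma cells, had 34.97 and 54.5 RPKM in pre-plasmablasts, against 8.22 and 14.04 RPKM in activated B cells, a difference of 1.92 ± 0.33 (SE, adjusted p = 0.00361), and Ly6a, which encodes Sca-1, had 1172 and 1611 RPKM in pre-plasmablasts, against 339 and 562 RPKM in activated B cells. Sdc1, which encodes the CD138 used to gate both groups out, had 2.19 and 2.12 RPKM in pre-plasmablasts, against 0.408 and 0.584 RPKM in activated B cells, a difference of 1.08 ± 0.15 (SE, adjusted p = 0.00125), so the transcript was low in both fractions. In plasmablasts, gated for CD138, Sdc1 had 32.7 and 30.4 RPKM. Tnfrsf1b and Cd274 did not pass, with Tnfrsf1b at 13.5 and 11.4 RPKM in pre-plasmablasts, against 13.6 and 11.3 RPKM in activated B cells.

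Sensors of bacterial and nucleic acid ligands and their partners went both ways. Of 19 Toll-like receptors and signalling partners 5 (26.3%) were higher and 7 (36.8%) lower, against 20.2% and 28.0% of all genes. Another 7 did not pass, and the median was 0.11 (0.20 with median-of-ratios scaling and 0.17 with quantile normalization). The count of higher members was 2 without pre-plasmablast library 1 and 3 without activated B cell library 2, 3 with only the 4 libraries compared, and 8 with the library pair as a block. Tlr4, the receptor for the LPS in the culture, had 3.37 and 3.33 RPKM in pre-plasmablasts, against 3.41 and 2.70 RPKM in activated B cells, at adjusted p = 0.565. Besides Tlr9, Tlr1 was lower, with 0.948 and 2.76 RPKM in pre-plasmablasts, against 18.6 and 34.9 RPKM in activated B cells, a difference of -3.29 ± 0.52 (SE, adjusted p = 0.00243). Ticam2, an adaptor of Tlr4, had 11.3 and 10.5 RPKM in pre-plasmablasts, against 29.4 and 28.8 RPKM in activated B cells, a difference of -1.34 ± 0.12 (SE, adjusted p = 0.000198). Tirap, another adaptor of Tlr4, was higher with 21.4 and 15.3 RPKM in pre-plasmablasts, against 3.86 and 3.87 RPKM in activated B cells, a difference of 1.97 ± 0.17 (SE, adjusted p = 0.000172), and Ticam1, also an adaptor, was higher at 0.87 ± 0.09 (SE, adjusted p = 0.000481). Irak2, a kinase downstream, did not pass (adjusted p = 0.188).

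Interferon response genes were lower in 28 of 49 tested members, higher in 8 and not called in 13 (median -0.65). Gbp2, a guanylate-binding protein, had 6.73 and 14.6 RPKM in pre-plasmablasts, against 136 and 200.1 RPKM in activated B cells, a difference of -3.92 ± 0.53 (SE, adjusted p = 0.00118). Ifi203, of the p200 family, had 3.13 and 6.77 RPKM in pre-plasmablasts, against 28.8 and 44.2 RPKM in activated B cells, a difference of -2.70 ± 0.46 (SE, adjusted p = 0.00331). Irgm1, an immunity-related GTPase, had 18.4 and 17.8 RPKM in pre-plasmablasts, against 44.6 and 49.9 RPKM in activated B cells. Oas2, a sensor of double-stranded RNA, had 0.861 and 0.942 RPKM in pre-plasmablasts, against 10.8 and 12.3 RPKM in activated B cells. Pre-plasmablast library 2 stood above library 1 for Gbp2 and Ifi203, and the 2 libraries were close for Irgm1 and Oas2. Higher were Isg20, an exonuclease, with 237 and 265 RPKM in pre-plasmablasts, against 25.2 and 34.8 RPKM in activated B cells, a difference of 3.04 ± 0.17 (SE, adjusted p = 4.18e-05), and Irf7, the regulator of interferon genes, with 164 and 149 RPKM in pre-plasmablasts, against 28.4 and 33.03 RPKM in activated B cells, a difference of 2.32 ± 0.12 (SE, adjusted p = 3.43e-05). Isg15, a ubiquitin-like protein, had 164 and 95.3 RPKM in pre-plasmablasts, against 64.8 and 41.5 RPKM in activated B cells, at adjusted p = 0.0545, and adjusted p = 1.68e-06 with the library pair as a block. Isg15 was also called with median-of-ratios scaling, with only the 4 libraries compared, without pre-plasmablast library 2 and without either Blimp1-deficient library. Samhd1 had 102 and 124 RPKM in pre-plasmablasts, against 103 and 119.3 RPKM in activated B cells and did not pass. Members of the Gbp, Oas, Ifit and Irgm families share sequence with close copies, and how reads were divided between them is not given in the sources used here.

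The interferon element, searched on both strands as GAAA and GAAA with 2 bases of any kind between them, lay in 18 of 35 interferon response genes with a promoter (51.4%), against 3.73% of all tested genes and 3.44% of all windows. Of those 18 genes 10 were lower, 2 were higher and 6 did not pass, with a median of -0.96, against -0.37 for the list's genes without it. Of the list's 17 genes without the element 8 were lower and 4 higher. A lower pair and a higher pair are shown with the 4 fixed letters at each end in capitals and 8 bases on either side, since the same letters stand by genes that differ in direction.
Gbp2: aagacagtGAAAgtGAAActaaaaga
Irgm1: tgtttcaaGAAAtaGAAAccgaaact
Bst2: cattccagGAAAatGAAActgaaagg
Rsad2: tgttttctGAAAatGAAAgttggacc
On GRCm38.p6 (RefSeq) they lie at chr3:142620596-142620621, minus strand, for Gbp2, at chr11:48871433-48871458, minus strand, for Irgm1, at chr8:71537585-71537610, minus strand, for Bst2, and at chr12:26456555-26456580, plus strand, for Rsad2. Irgm1 and Bst2 each have a further match that overlaps the one shown. Bst2, which tethers virus particles, had 259 and 197 RPKM in pre-plasmablasts, against 88.3 and 86.4 RPKM in activated B cells, a difference of 1.36 ± 0.16 (SE, adjusted p = 0.000734). Rsad2, the antiviral enzyme viperin, had 9.86 and 8.55 RPKM in pre-plasmablasts, against 3.16 and 3.89 RPKM in activated B cells, a difference of 1.17 ± 0.15 (SE, adjusted p = 0.00095). Among the others with the element, Gbp3 had 21.3 and 22.9 RPKM in pre-plasmablasts, against 93.6 and 96.6 RPKM in activated B cells, a difference of -2.06 ± 0.12 (SE, adjusted p = 4.02e-05), Ifih1, the RNA sensor MDA5, differed by -1.64 ± 0.10 (SE, adjusted p = 5.27e-05), and Stat2, a transducer of interferon signals, by -1.04 ± 0.19 (SE, adjusted p = 0.00465). Ifit1 had 6.85 and 7.10 RPKM in pre-plasmablasts, against 5.52 and 8.90 RPKM in activated B cells and did not pass.

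Sterol and fatty acid synthesis was lower in 24 of 37 tested members, higher in 3 and not called in 10 (median -0.56). Mvk, a kinase of the mevalonate route, had 20.1 and 16.3 RPKM in pre-plasmablasts, against 55.1 and 51.3 RPKM in activated B cells, a difference of -1.50 ± 0.16 (SE, adjusted p = 0.000412). Mvd, the decarboxylase of the same route, had 67.6 and 59.5 RPKM in pre-plasmablasts, against 165 and 139.9 RPKM in activated B cells, a difference of -1.25 ± 0.13 (SE, adjusted p = 0.000343). Neither gene's groups overlapped. Acat2 differed by -1.46 ± 0.17 (SE, adjusted p = 0.000588). Scd1, a fatty acid desaturase, had 224 and 246 RPKM in pre-plasmablasts, against 485 and 484 RPKM in activated B cells, a difference of -1.04 ± 0.09 (SE, adjusted p = 0.000181). Insig1, an ER protein that holds back sterol regulatory factors, was higher with 114 and 102 RPKM in pre-plasmablasts, against 55.1 and 55.2 RPKM in activated B cells, a difference of 0.96 ± 0.09 (SE, adjusted p = 0.000308). Ebp, of late cholesterol synthesis, was higher at 0.80 ± 0.11 (SE, adjusted p = 0.00115) and Elovl6, a fatty acid elongase, at 0.94 ± 0.16 (SE, adjusted p = 0.00331). The sterol element TCACNCCAC lay in 0 of 27 genes of the list with a promoter, against 1.39% of all tested genes. With so small a share over all genes, 0 of 27 does not tell the list from the rest. Glycolysis genes were higher in 4 (17.4%) and lower in 8 (34.8%) of 23 tested members (median -0.15), against 20.2% and 28.0% of all genes. With median-of-ratios scaling 5 were lower (median -0.04), and the median was -0.05 with quantile normalization. Lower members numbered 4 without pre-plasmablast library 2 or activated B cell library 1, and the higher count was 7 with the library pair as a block. Pfkp, a phosphofructokinase, had 81.5 and 71.2 RPKM in pre-plasmablasts, against 35.9 and 32.9 RPKM in activated B cells, a difference of 1.13 ± 0.12 (SE, adjusted p = 0.00039), and Pkm2, which encodes pyruvate kinase, had 734 and 832 RPKM in pre-plasmablasts, against 374 and 432 RPKM in activated B cells, a difference of 0.96 ± 0.13 (SE, adjusted p = 0.00123). Pfkfb3, which makes an activator of phosphofructokinase, was lower at -1.02 ± 0.10 (SE, adjusted p = 0.0003). Slc2a1, a glucose transporter, had 17.8 and 20.2 RPKM in pre-plasmablasts, against 17.2 and 18.8 RPKM in activated B cells and did not pass.

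Ribosomal proteins took 8.73% and 7.67% of summed RPKM in pre-plasmablasts, against 10.9% and 9.40% in activated B cells. Of 74 tested members 2 (2.7%) were higher and 9 (12.2%) lower, against 20.2% and 28.0% of all genes. Their median was -0.25, against -0.12 over all genes, and -0.13 against -0.01 with median-of-ratios scaling. Lower members numbered 5 without pre-plasmablast library 1 and 4 without activated B cell library 1 or 2, 5 with median-of-ratios scaling and 38 with the library pair as a block. Higher members numbered 1 without pre-plasmablast library 2 or activated B cell library 1, and 4 with the block. Rps27l, a paralog of Rps27, was higher with 279.7 and 294 RPKM in pre-plasmablasts, against 121 and 137 RPKM in activated B cells, a difference of 1.15 ± 0.10 (SE, adjusted p = 0.000176). Rps16 had 54.8 and 210.2 RPKM in pre-plasmablasts, against 62.1 and 184 RPKM in activated B cells, so its libraries differed more between pairs than between groups, and it did not pass. Ribosome biogenesis genes were lower in 20 (35.1%) and higher in 2 (3.5%) of 57 tested members, against 28.0% and 20.2% of all genes. Their median was -0.32, and -0.20 with median-of-ratios scaling. With that scaling 14 were lower and 3 higher, against 2259 and 2461 of all 10473 genes. Their lower count was 13 without pre-plasmablast library 1 and 12 without pre-plasmablast library 2 and 9 without activated B cell library 1, and 43 with the block. Their higher count was 1 without activated B cell library 1, and 3 with the block. Polr1c, shared by RNA polymerases I and III, had 46.96 and 46.5 RPKM in pre-plasmablasts, against 86.6 and 93.4 RPKM in activated B cells, a difference of -0.93 ± 0.10 (SE, adjusted p = 0.000423). Nop58, of the box C/D particles, had 70.5 and 86.4 RPKM in pre-plasmablasts, against 74.5 and 82.5 RPKM in activated B cells and did not pass.

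Proteasome subunits were higher in 4 (8.9%) and lower in 5 (11.1%) of 45 tested members (median 0.00), against 20.2% and 28.0% of all genes. Psmd14, a deubiquitinase of the cap, had 96.8 and 120.2 RPKM in pre-plasmablasts, against 62.03 and 59.8 RPKM in activated B cells, a difference of 0.81 ± 0.12 (SE, adjusted p = 0.00179). The counts were 12 higher and 10 lower with the library pair as a block, and 8 higher and 3 lower with median-of-ratios scaling (median 0.12). With a library left out, the higher count was 2 without pre-plasmablast library 1 or 2 and 1 without activated B cell library 2, and the lower count was 3 without pre-plasmablast library 1 or activated B cell library 1. Respiratory chain and ATP synthase genes were higher in 7 (11.5%) and lower in 5 (8.2%) of 61 tested members, against the same shares of all genes. Their median was 0.06, and -0.01 with quantile normalization. Ndufa1, a complex I subunit, had 426 and 580.5 RPKM in pre-plasmablasts, against 110.3 and 133 RPKM in activated B cells, a difference of 2.03 ± 0.27 (SE, adjusted p = 0.00107), and Uqcrq, of complex III, had 1078 and 1154 RPKM in pre-plasmablasts, against 411 and 459 RPKM in activated B cells, a difference of 1.36 ± 0.12 (SE, adjusted p = 0.000185). The counts were 19 higher and 11 lower with the library pair as a block, and 11 higher and 0 lower with median-of-ratios scaling (median 0.18). With a library left out, the lower count was 3 without pre-plasmablast library 1 and 1 without pre-plasmablast library 2 or activated B cell library 1 or 2, and it was 1 with only the 4 libraries compared. Psmd2 and Ndufs8 hardly differed, at -0.00028 and 0.01 with adjusted p = 0.998 and adjusted p = 0.984.

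Lysosome and autophagy genes were higher in 17 (43.6%) and lower in 7 (17.9%) of 39 tested members (median 0.45), against 20.2% and 28.0% of all genes. Ctsl, a lysosomal protease, had 37.01 and 22.6 RPKM in pre-plasmablasts, against 5.93 and 3.41 RPKM in activated B cells, a difference of 2.44 ± 0.35 (SE, adjusted p = 0.00156). Ctsd, another, had 409 and 287 RPKM in pre-plasmablasts, against 92.9 and 70.1 RPKM in activated B cells, a difference of 2.07 ± 0.25 (SE, adjusted p = 0.000748). For both, library 1 stood above library 2 in each group, and the groups did not overlap. Wipi1, of autophagosome formation, had 10.3 and 10.6 RPKM in pre-plasmablasts, against 0.772 and 1.22 RPKM in activated B cells, a difference of 2.53 ± 0.16 (SE, adjusted p = 5.53e-05). Sqstm1, the autophagy receptor p62, differed by 1.91 ± 0.10 (SE, adjusted p = 3.39e-05). Tcfeb, the TFEB factor that induces lysosomal genes, was lower with 47.7 and 40.96 RPKM in pre-plasmablasts, against 162 and 147 RPKM in activated B cells, a difference of -1.78 ± 0.13 (SE, adjusted p = 9.54e-05). Psap, the prosaposin precursor, was also lower, at -1.15 ± 0.09 (SE, adjusted p = 9.81e-05). Npc1, of cholesterol export, had 11.7 and 11.4 RPKM in pre-plasmablasts, against 11.3 and 11.4 RPKM in activated B cells and did not pass.

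Cyclin-dependent kinase inhibitors were higher in 4 of 7 tested members and lower in none (median 0.83). Cdkn2a, which encodes p16 and ARF and is read here as 1 gene, had 188 and 177 RPKM in pre-plasmablasts, against 18.8 and 22.1 RPKM in activated B cells, a difference of 3.10 ± 0.10 (SE, adjusted p = 1.54e-05). Cdkn2b, its neighbour encoding p15, had 35.7 and 40.7 RPKM in pre-plasmablasts, against 2.55 and 4.10 RPKM in activated B cells, a difference of 3.20 ± 0.23 (SE, adjusted p = 8.32e-05). Cdkn1a, which encodes p21, had 82.8 and 87.97 RPKM in pre-plasmablasts, against 33.7 and 33.6 RPKM in activated B cells, a difference of 1.32 ± 0.13 (SE, adjusted p = 0.000345). Cdkn1c had 1.06 and 1.44 RPKM in pre-plasmablasts, against 0.196 and 0.322 RPKM in activated B cells, a difference of 0.83 ± 0.16 (SE, adjusted p = 0.00567). For the first 3 the lower pre-plasmablast library exceeded the higher activated B cell library by a wide margin, and Cdkn1c was at or under 1.44 RPKM throughout. Cdkn1b and Cdkn3 did not pass (adjusted p = 0.375 and adjusted p = 0.392). Cdkn2c had 24.97 and 15.7 RPKM in pre-plasmablasts, against 14.7 and 10.5 RPKM in activated B cells, at adjusted p = 0.112, and adjusted p = 0.000202 with the library pair as a block. Without pre-plasmablast library 2 it passed as well.

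DNA replication genes were lower in 24 (48%) and higher in 4 (8%) of 50 tested members (median -0.48), against 28.0% and 20.2% of all genes. The number higher was 2 without pre-plasmablast library 1 or 2 or activated B cell library 2, and 2 with only the 4 libraries compared. Pold1, the catalytic subunit of polymerase delta, had 17.3 and 16.8 RPKM in pre-plasmablasts, against 62.8 and 60.5 RPKM in activated B cells, a difference of -1.80 ± 0.12 (SE, adjusted p = 7.29e-05). Rfc2, of the clamp loader, had 65.2 and 57.3 RPKM in pre-plasmablasts, against 194 and 164 RPKM in activated B cells. Dnmt1, which copies DNA methylation, had 35.7 and 35.7 RPKM in pre-plasmablasts, against 81.3 and 72.3 RPKM in activated B cells, a difference of -1.08 ± 0.10 (SE, adjusted p = 0.000206). Fen1, the flap endonuclease, was higher with 122 and 117.5 RPKM in pre-plasmablasts, against 69.4 and 67.1 RPKM in activated B cells, a difference of 0.80 ± 0.09 (SE, adjusted p = 0.000461). Pold2, the partner of Pold1, had 56.2 and 60.3 RPKM in pre-plasmablasts, against 55.9 and 61.5 RPKM in activated B cells and did not pass. Mitosis genes and cyclins were lower in 21 (43.8%) and higher in 6 (12.5%) of 48 tested members (median -0.38), against 28.0% and 20.2% of all genes. Lower members numbered 13 without pre-plasmablast library 2 and 11 without activated B cell library 1, and 13 with median-of-ratios scaling. Ccnd2, a D cyclin, was higher with 231 and 217 RPKM in pre-plasmablasts, against 59.96 and 69.9 RPKM in activated B cells, a difference of 1.77 ± 0.14 (SE, adjusted p = 0.00011), and Ccnd3, another, was lower with 18.5 and 16.02 RPKM in pre-plasmablasts, against 51.2 and 49.02 RPKM in activated B cells, a difference of -1.49 ± 0.10 (SE, adjusted p = 6.04e-05). Cdk6, their kinase partner, was higher at 1.18 ± 0.13 (SE, adjusted p = 0.000546). Mybl2, a factor of dividing cells, was lower at -1.29 ± 0.10 (SE, adjusted p = 0.000121), while E2f3 had 8.33 and 7.70 RPKM in pre-plasmablasts, against 7.84 and 8.19 RPKM in activated B cells and did not pass.

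Myc itself had 76.7 and 71.7 RPKM in pre-plasmablasts, against 68.03 and 89.97 RPKM in activated B cells, at adjusted p = 0.692, and its group ranges overlapped. Among 11 genes of the Myc network and related regulators 3 (27.3%) were higher and 4 (36.4%) lower, against 20.2% and 28.0% of all genes. Their median was -0.08, and 0.05 with median-of-ratios scaling. The lower count was 2 without pre-plasmablast library 1 or activated B cell library 1. Max, the partner of Myc, had 50.7 and 56.3 RPKM in pre-plasmablasts, against 92.2 and 94.3 RPKM in activated B cells, a difference of -0.79 ± 0.09 (SE, adjusted p = 0.000501), and Mnt, a repressor that competes for Max, differed by -1.02 ± 0.19 (SE, adjusted p = 0.00532). Higher were Mlx, Mxd1 and Tcf12, at 0.89 ± 0.11 (SE, adjusted p = 0.000712), 0.52 ± 0.11 (SE, adjusted p = 0.00695) and 0.47 ± 0.09 (SE, adjusted p = 0.00625). Class switch and DNA break repair genes were lower in 10 (40%) and higher in 4 (16%) of 25 tested members (median -0.36), against 28.0% and 20.2% of all genes. The higher count was 2 without activated B cell library 1 and 2 with only the 4 libraries compared. Apex1, a nuclease for abasic sites, was lower at -1.13 ± 0.14 (SE, adjusted p = 0.000733). Lig4, the ligase of end joining, was higher with 8.80 and 10.6 RPKM in pre-plasmablasts, against 1.66 and 2.23 RPKM in activated B cells, a difference of 1.86 ± 0.14 (SE, adjusted p = 0.000111). Rif1, which shields DNA ends, had 5.38 and 10 RPKM in pre-plasmablasts, against 5.71 and 8.30 RPKM in activated B cells and did not pass.

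In the Bcl2 family 3 of 12 tested members (25%) were higher and 4 (33.3%) lower, against 20.2% and 28.0% of all genes. The other 5 did not pass, and the median was 0.06, or 0.18 with median-of-ratios scaling. Lower members numbered 2 without activated B cell library 1 or 2 and 2 with that scaling, and with the library pair as a block 6 were higher and 6 lower. Bcl2l1, which encodes the survival protein Bcl-xL, had 137 and 131 RPKM in pre-plasmablasts, against 12.7 and 15.3 RPKM in activated B cells, a difference of 3.17 ± 0.12 (SE, adjusted p = 1.54e-05). Bcl2 had 6.94 and 7.81 RPKM in pre-plasmablasts, against 18.8 and 23.4 RPKM in activated B cells, a difference of -1.39 ± 0.16 (SE, adjusted p = 0.000645). The 2 survival genes thus stood in opposite order. Among death-promoting members, Bmf was higher at 1.38 ± 0.14 (SE, adjusted p = 0.000407) and Bcl2l11, which encodes Bim, was lower at -0.95 ± 0.09 (SE, adjusted p = 0.00025).

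Homing receptors and adhesion molecules were higher in 10 (37.0%) and lower in 12 (44.4%) of 27 tested members, against 20.2% and 28.0% of all genes. Their median was -0.18, and -0.05 with median-of-ratios scaling. Cxcr4, the receptor that guides plasma cells to bone marrow, had 215 and 153 RPKM in pre-plasmablasts, against 32.7 and 25.04 RPKM in activated B cells, a difference of 2.62 ± 0.31 (SE, adjusted p = 0.000667). Cd24a, a small anchored glycoprotein, had 1158 and 1213 RPKM in pre-plasmablasts, against 243 and 265 RPKM in activated B cells, a difference of 2.22 ± 0.14 (SE, adjusted p = 5.88e-05). Ccr10, a receptor of mucosal plasma cells, had 3.12 and 2.73 RPKM in pre-plasmablasts, against 0.110 and 0.294 RPKM in activated B cells. Ccr6, a chemokine receptor of B cells, was lower with 4.15 and 7.35 RPKM in pre-plasmablasts, against 76.3 and 82.3 RPKM in activated B cells, a difference of -3.61 ± 0.34 (SE, adjusted p = 0.000257). Cd9, a tetraspanin, had 83.5 and 33.04 RPKM in pre-plasmablasts, against 9.50 and 4.67 RPKM in activated B cells, a difference of 2.80 ± 0.63 (SE, adjusted p = 0.0106), a call lost without pre-plasmablast library 1 and without activated B cell library 2. P2ry10 did not pass (adjusted p = 0.899).

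Cytokines and other secreted factors were higher in 9 (50%) and lower in 6 (33.3%) of 18 tested members (median 0.51), against 20.2% and 28.0% of all genes. Apoe, a lipid carrier, had 338 and 435 RPKM in pre-plasmablasts, against 33.8 and 38.6 RPKM in activated B cells, a difference of 3.37 ± 0.21 (SE, adjusted p = 5.47e-05), and Vegfa, the vessel growth factor, had 70.2 and 50.01 RPKM in pre-plasmablasts, against 3.07 and 4.49 RPKM in activated B cells, a difference of 3.67 ± 0.23 (SE, adjusted p = 5.67e-05). Ccl22, a chemokine that draws T cells, was lower with 10.5 and 14.7 RPKM in pre-plasmablasts, against 106 and 153 RPKM in activated B cells, a difference of -3.25 ± 0.40 (SE, adjusted p = 0.000776). Tgfb1 had 120.1 and 137 RPKM in pre-plasmablasts, against 392 and 407 RPKM in activated B cells, a difference of -1.63 ± 0.10 (SE, adjusted p = 4.93e-05), and Il12a, a subunit of IL-12, had 6.08 and 4.29 RPKM in pre-plasmablasts, against 20.8 and 18.9 RPKM in activated B cells. The anti-inflammatory genes Il10 and Tgfb1 thus differed in opposite directions. Ccl3 had 13.9 and 9.80 RPKM in pre-plasmablasts, against 11.3 and 16.5 RPKM in activated B cells and did not pass.

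Genes of mRNA 3' end processing and elongation were higher in 4 (13.8%) and lower in 5 (17.2%) of 29 tested members, against 20.2% and 28.0% of all genes. The median of -0.18 became -0.06 with median-of-ratios scaling and -0.08 with quantile normalization. With the library pair as a block 8 were higher and 12 lower, against 2921 and 4368 of all 10473 genes. The lower count was 3 without pre-plasmablast library 2 or activated B cell library 1. Eaf2, a partner of the elongation factor Ell2, had 58.2 and 50.98 RPKM in pre-plasmablasts, against 1.27 and 2.35 RPKM in activated B cells, a difference of 4.33 ± 0.21 (SE, adjusted p = 2.67e-05). Ell2, which favours the secreted form of antibody mRNA, had 177 and 226 RPKM in pre-plasmablasts, against 20.8 and 26.9 RPKM in activated B cells. Hnrpll, a splicing regulator of lymphocytes, had 5.86 and 6.64 RPKM in pre-plasmablasts, against 0.200 and 0.248 RPKM in activated B cells, a difference of 2.57 ± 0.16 (SE, adjusted p = 5.97e-05). Ell, the paralog of Ell2, had 15.6 and 16.3 RPKM in pre-plasmablasts, against 16.4 and 16.6 RPKM in activated B cells and did not pass. Cpsf3, the endonuclease that cleaves pre-mRNA, was lower at -0.70 ± 0.12 (SE, adjusted p = 0.00372).

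Polycomb genes were higher in 2 (6.9%) and lower in 6 (20.7%) of 29 tested members, against 20.2% and 28.0% of all genes. Their median was -0.02, and 0.09 with median-of-ratios scaling. The counts were 8 higher and 12 lower with the library pair as a block, against 2921 and 4368 of all 10473 genes. They were 5 higher and 4 lower with median-of-ratios scaling (median 0.09). With a library left out, the higher count was 1 without pre-plasmablast library 2 or activated B cell library 1, and the lower count was 3 without activated B cell library 1. Ezh2, the methyltransferase of Polycomb repressive complex 2, had 81.9 and 114 RPKM in pre-plasmablasts, against 55.2 and 70.97 RPKM in activated B cells, at adjusted p = 0.0672, and adjusted p = 0.000733 with the library pair as a block. It also passed with median-of-ratios scaling, without pre-plasmablast library 1 and without either plasmablast library. Its groups did not overlap, and within each pair the pre-plasmablast value was the higher. Phc2, of complex 1, was lower at -0.78 ± 0.08 (SE, adjusted p = 0.000452), and Bmi1 had 13.8 and 13.1 RPKM in pre-plasmablasts, against 13.9 and 13.5 RPKM in activated B cells and did not pass. Stress handling and early response genes were higher in 8 (30.8%) and lower in 2 (7.7%) of 26 tested members, against 20.2% and 28.0% of all genes. Their median was 0.05, and 0.14 with median-of-ratios scaling, and 10 were higher and 6 lower with the block. Of the stress genes, the lower count was 1 without pre-plasmablast library 1 or 2 or activated B cell library 1 and 4 without activated B cell library 2, and 1 with median-of-ratios scaling or only the 4 libraries compared. Dusp4, a phosphatase that dampens MAP kinases, had 173 and 157 RPKM in pre-plasmablasts, against 17.9 and 21.2 RPKM in activated B cells, a difference of 3.02 ± 0.12 (SE, adjusted p = 1.62e-05). Jun differed by 1.68 ± 0.10 (SE, adjusted p = 4.86e-05). Egr3, an early response factor, was lower with 29.04 and 21.3 RPKM in pre-plasmablasts, against 165 and 131 RPKM in activated B cells, a difference of -2.51 ± 0.22 (SE, adjusted p = 0.000203), and Jund, a relative of Jun, had 579 and 702 RPKM in pre-plasmablasts, against 556 and 735 RPKM in activated B cells and did not pass.

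Markers of B cells and of other cell types were read in all 4 libraries to check the labels. The 10 pan-B markers summed to 4536 and 4749 RPKM in pre-plasmablasts, against 5163 and 5391 RPKM in activated B cells, with 1 higher, 7 lower and 2 not called. Cd79a, a receptor signalling chain, had 819 and 1039.7 RPKM in pre-plasmablasts, against 702 and 847 RPKM in activated B cells, at adjusted p = 0.292, and adjusted p = 0.00269 with the library pair as a block. Of 17 T cell markers 6 were tested, with 2 higher and 2 lower, summing to 76.9 and 83.3 RPKM in pre-plasmablasts, against 218 and 167 RPKM in activated B cells, mostly Cd2. Without pre-plasmablast library 2 or activated B cell library 1 or 2 the higher count was 1. Of 20 myeloid markers 7 were tested, with 2 higher and 3 lower, summing to 44.5 and 48.8 RPKM in pre-plasmablasts, against 47.7 and 41.3 RPKM in activated B cells. Of 16 NK and dendritic cell markers 5 were tested, with 2 higher and 1 lower, summing to 289 and 226 RPKM in pre-plasmablasts, against 150.0 and 139.9 RPKM in activated B cells, mostly Bst2. Of 18 erythroid and megakaryocyte markers 2 were tested, both lower, summing to 3.45 and 4.21 RPKM in pre-plasmablasts, against 18.6 and 13.1 RPKM in activated B cells. Hbb-b1, a globin, had 0.338 and 0.651 RPKM in pre-plasmablasts, against 13.3 and 6.55 RPKM in activated B cells. Itgam, the integrin CD11b and 1 of the 3 lower myeloid markers, had 0.508 and 0.675 RPKM in pre-plasmablasts, against 11.01 and 10.2 RPKM in activated B cells. The 2 higher myeloid markers and the 2 lower T cell markers are not given singly here, so the markers named do not stand for their lists. Cd28, a T cell costimulatory receptor also found on plasma cells, was higher with 8.30 and 6.89 RPKM in pre-plasmablasts, against 0.961 and 0.904 RPKM in activated B cells. Cd8b1 had 0.150 and 0.207 RPKM in pre-plasmablasts, against 0.0382 and 0.0210 RPKM in activated B cells. The defining T cell genes Cd3e and Cd4 and the myeloid genes Lyz2 and Csf1r were not analysed here, so the sums rest on the members named as tested. The part of other cells in the differences was not tested.

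Blimp1-deficient pre-plasmablasts, which had also switched on the GFP reporter, give a second view of the same genes. They differ from control pre-plasmablasts in genotype and in the CD22 gate together, so the 2 cannot be told apart. Of the 10473 genes 4234 (40.4%) differed, 2553 (24.4%) higher and 1681 (16.1%) lower than in control pre-plasmablasts, and 6829 differed with the library pair as a block. This comparison shares the control pre-plasmablasts with the one above, so its values are set beside the others and no overlap is drawn. Prdm1 had 199 and 171 RPKM in Blimp1-deficient pre-plasmablasts, 429 and 327 RPKM in control pre-plasmablasts and 7.45 and 10.7 RPKM in activated B cells. A value over the whole gene does not check a deletion within it. Over the secretory lists the share of summed RPKM was 3.15% and 3.25% in Blimp1-deficient pre-plasmablasts, 8.85% and 9.10% in control pre-plasmablasts and 2.32% and 2.45% in activated B cells.

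A number of genes were near the activated B cell level in the Blimp1-deficient cells, and the examples of both kinds were chosen after their values were seen. Fkbp11 had 4.43 and 3.75 RPKM in Blimp1-deficient pre-plasmablasts, 167 and 109 RPKM in control pre-plasmablasts and 2.60 and 3.58 RPKM in activated B cells, a difference of -4.74 ± 0.29 (SE, adjusted p = 8.09e-05) from control pre-plasmablasts. Bcl2l1 had 13.7 and 16.5 RPKM in Blimp1-deficient pre-plasmablasts, 137 and 131 RPKM in control pre-plasmablasts and 12.7 and 15.3 RPKM in activated B cells, a difference of -3.07 ± 0.12 (SE, adjusted p = 4.03e-05). Chac1 and Vegfa differed from control pre-plasmablasts by -3.61 ± 0.25 (SE, adjusted p = 0.000132) and -3.87 ± 0.23 (SE, adjusted p = 7.79e-05). Spib had 499.8 and 524 RPKM in Blimp1-deficient pre-plasmablasts, 14.9 and 30.2 RPKM in control pre-plasmablasts and 546 and 569 RPKM in activated B cells. Tlr9 had 132 and 133 RPKM in Blimp1-deficient pre-plasmablasts, 2.65 and 5.16 RPKM in control pre-plasmablasts and 107 and 109.5 RPKM in activated B cells, a difference of 4.82 ± 0.31 (SE, adjusted p = 0.000102), with the deficient cells above the activated B cells too. All of these stood outside the control pre-plasmablast range.

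Other genes were near the control pre-plasmablast level in the deficient cells. Cdkn2b had 37.8 and 52.3 RPKM in Blimp1-deficient pre-plasmablasts, 35.7 and 40.7 RPKM in control pre-plasmablasts and 2.55 and 4.10 RPKM in activated B cells, a difference from control pre-plasmablasts of 0.22 ± 0.23 (SE, adjusted p = 0.495). Cdkn2a had 137 and 144 RPKM in Blimp1-deficient pre-plasmablasts, 188 and 177 RPKM in control pre-plasmablasts and 18.8 and 22.1 RPKM in activated B cells, a difference of -0.38 ± 0.10 (SE, adjusted p = 0.0251). That call was lost without any 1 of the 4 pre-plasmablast libraries. Cxcr4 had 223 and 147 RPKM in Blimp1-deficient pre-plasmablasts, 215 and 153 RPKM in control pre-plasmablasts and 32.7 and 25.04 RPKM in activated B cells, a difference of -0.0016 ± 0.31 (SE, adjusted p = 0.997). The values of Cxcr4 in both kinds of pre-plasmablast lay well above activated B cells. Cd24a and Ccnd2 differed from control pre-plasmablasts by -0.32 ± 0.14 (SE, adjusted p = 0.12) and -0.33 ± 0.14 (SE, adjusted p = 0.0996). Both calls turn with the library pair as a block, at adjusted p = 0.0202 and 0.0137, and without Blimp1-deficient library 2. Among genes lower in control pre-plasmablasts, Bach2 had 2.95 and 3.86 RPKM in Blimp1-deficient pre-plasmablasts, 4.17 and 4.59 RPKM in control pre-plasmablasts and 22.1 and 21.7 RPKM in activated B cells. Ccr6 had 3.89 and 4.90 RPKM in Blimp1-deficient pre-plasmablasts, 4.15 and 7.35 RPKM in control pre-plasmablasts and 76.3 and 82.3 RPKM in activated B cells. Fcer2a had 1.72 and 3.70 RPKM in Blimp1-deficient pre-plasmablasts, 0.987 and 2.08 RPKM in control pre-plasmablasts and 38.3 and 49.4 RPKM in activated B cells. Their differences from control pre-plasmablasts, -0.30 ± 0.16 (SE, adjusted p = 0.182), -0.29 ± 0.34 (SE, adjusted p = 0.543) and 0.53 ± 0.40 (SE, adjusted p = 0.336), did not pass, while Bach2 (also with quantile normalization) and Fcer2a passed with the block at adjusted p = 0.0412 and 0.00843. A difference that does not pass does not show that the levels were equal. In some genes the deficient cells stood beyond both other groups, as in the 2 described next. Zbtb20 had 26.3 and 24.8 RPKM in Blimp1-deficient pre-plasmablasts, 7.01 and 6.92 RPKM in control pre-plasmablasts and 3.81 and 3.96 RPKM in activated B cells. Ccl22 had 625 and 489 RPKM in Blimp1-deficient pre-plasmablasts, 10.5 and 14.7 RPKM in control pre-plasmablasts and 106 and 153 RPKM in activated B cells.

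**Figure D5:**
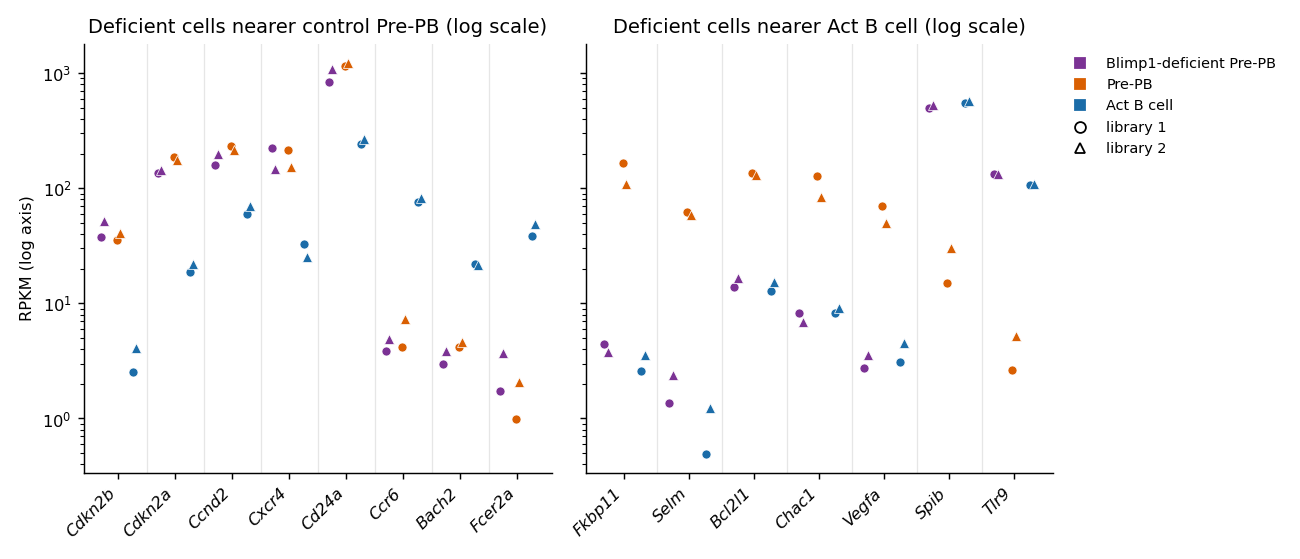
RPKM on a log axis in Blimp1-deficient pre-plasmablasts, control pre-plasmablasts and activated B cells, from left to right, 2 libraries each, for genes where the deficient cells lay nearer control pre-plasmablasts (left panel) or nearer activated B cells (right panel). Cdkn2b, Cxcr4 and Bach2 in the left panel show the deficient cells beside the controls, and Fkbp11, Bcl2l1 and Spib in the right panel beside the activated B cells; the genes were chosen to show each pattern.

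Plasmablasts, the next stage by CD138, differed from pre-plasmablasts in 245 genes (2.34%), 75 (0.716%) higher and 170 (1.62%) lower. That count rests on few libraries. It was 26 without either pre-plasmablast library, 23 and 68 without plasmablast library 1 and 2, between 128 and 154 without any other library, 1 with only the 4 libraries compared and 2128 with the library pair as a block. The comparison shares the pre-plasmablast libraries, and values are given for a few genes described above, chosen after their values were seen. Sdc1 was higher by 3.37 ± 0.15 (SE, adjusted p = 0.0007), a description of the gate. Apoe had 34.7 and 51.2 RPKM in plasmablasts, against 338 and 435 RPKM in pre-plasmablasts, a difference of -3.15 ± 0.21 (SE, adjusted p = 0.0037), which did not pass with only the 4 libraries compared. Plasmablasts were thus near the activated B cell level of Apoe. Among regulators Xbp1 did not pass at 0.33 ± 0.31 (SE, adjusted p = 0.721), Irf4 at 0.30 ± 0.14 (SE, adjusted p = 0.374) and Pax5 at -0.48 ± 0.48 (SE, adjusted p = 0.745), and Pax5 passed with the block at adjusted p = 0.049.

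Some well-expressed genes hardly differed between pre-plasmablasts and activated B cells. Among genes at 20 RPKM or more, Prpf4b, a splicing kinase, had 29.7 and 26.4 RPKM in pre-plasmablasts, against 30.6 and 25.6 RPKM in activated B cells. Men1, which encodes menin, had 43.4 and 45.5 RPKM in pre-plasmablasts, against 42.9 and 46.02 RPKM in activated B cells. Eif4g2, a translation factor, had 124 and 137 RPKM in pre-plasmablasts, against 122 and 139.7 RPKM in activated B cells. Dus3l, a tRNA-modifying enzyme, had 35.96 and 34.3 RPKM in pre-plasmablasts, against 33.4 and 37.03 RPKM in activated B cells. Polr2j, a subunit of RNA polymerase II, had 131 and 197 RPKM in pre-plasmablasts, against 128 and 202 RPKM in activated B cells, so that library 2 stood above library 1 in both groups by more than the groups differed. With median-of-ratios scaling the log2 difference was 0.12 for Prpf4b and 0.12 for Men1, the size of the shift between scalings.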

How the data were processed

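Poly(A) RNA of sorted cells was made into strand-specific libraries and read to 50 nucleotides, per the labels' protocols. The submitters' processing notes name TopHat 1.4.1, HTSeq 0.5.3, DESeq 1.8.3 and build mm9, without their roles. The values used are the RPKM that the authors deposited, 1 table per library, corrected for GC content per the file names, and whether counting used strand is not given in the sources used here. Each table holds 11567 entries. Entries under a repeated name (126, of 61 names) were left out, which leaves 11441 genes. No read counts could be recovered from the low values, so the depth is unknown and no interval of counting error is given.

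Values were tested with limma 3.58.1 (R 4.3.3) on log2(RPKM + 1), in 1 fit of 8 libraries in 4 groups with a mean-variance trend, 2-sided, over the 10473 genes that reached 1 RPKM in 2 libraries or more. P-values were adjusted by Benjamini-Hochberg and called below 0.05. Fold changes on this scale understate the change of low genes, and ± is the standard error of the fit. On simulated data of this size, 66 of 100 genes changed by 1 log2 unit and 94 of 100 changed by 2 were recovered, with 13 unchanged genes called. The simulation gave each library independent noise without a pair effect and changed far fewer genes than were called here. Its rates may therefore not carry over to these data. Libraries of a pair deviated together, with correlations between groups of 0.666 to 0.781 over genes, so the pair was used as a block in an alternative fit. Of the 11441 genes, 9776 were matched to a RefSeq name by symbol and 1273 by synonym. Promoters came from RefSeq (GRCm38.p6) and were at hand for 8263 of the tested genes. Genes were named by a rule: the 15 called genes at each end of the fold changes whose groups do not overlap; in each list the 5 largest called changes, up to 4 called members against the list's main direction and the 2 smallest changes, or all members of lists of 8 or fewer; a set of regulators and markers; the 10 most equal genes at 20 RPKM or more; the 5 called genes on which the pairs differ most; and genes of 5 lists with an element in the promoter. A clause of the rule on protein ends was not applied. Genes outside it are marked where they appear, and some genes within it are not reported here. The comparison, its lists and its rule were chosen with earlier results of these data known.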

Additional observations from a re-analysis of the deposited data

How the results depend on the processing

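Counts of higher genes (2117) and of lower genes (2931) stayed within 1.5 times the values given under each alternative. Leaving out 1 library gave 1625 to 2048 higher and 2069 to 2796 lower. Other settings gave 1737 to 2921 higher and 2259 to 4368 lower, the upper ends with the library pair as a block. The count of genes that differ between Blimp1-deficient and control pre-plasmablasts was 2996 to 3893 with a library left out, and 6829 with the replicate block in place of 4234. The count between plasmablasts and pre-plasmablasts, 245, was 1 with only the 4 libraries compared, 2128 with the block, and 23 to 154 with a library left out. For that last count the alternatives were added after the values were seen. The cause of these shifts was not tested.

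Among 392 genes tested singly, median-of-ratios scaling ended the call of 18 and made one of 5, the block ended 0 and made 16, a fit of only the 4 libraries ended 25, and leaving out 1 library ended 6 to 37. None of them changed direction with a call in either fit under any alternative run, and a stricter filter left some without a value. Of 80 counts of list members in 1 direction, 20 moved by over 1.5 times with the block, 13 with median-of-ratios scaling and 0 to 20 with a library left out. Beyond the calls given in the report, the block changed no other call of a gene named there. With 2 libraries a group and unknown depth, the spread between libraries sets the precision.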
